A study of Mus musculus with 6 samples.

Results

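Cell division in bone was examined through 34 genes of DNA replication and mitosis, taken by symbol from a fixed list. Of these, 15 were classed with S phase, when DNA is copied, and 19 with mitosis, when chromosomes are separated. They belong to a table of 54532 genes, of which 13619 had a mean level of at least 1 FPKM (sequenced fragments per kilobase of a gene's exons, corrected for library size) and were tested. All 34 genes were above that minimum. RNA was sequenced from bone of female C57BL/6J mice aged 16 weeks. There were 3 libraries labelled WT, from wild-type mice, and 3 labelled MIR29cb2-KO, from mice lacking the miR-29cb2 cluster on chromosome 1, which encodes miR-29b and miR-29c. No treatment is named for either group. Not stated in the labels are the bone used, the removal of marrow, the extent of the deletion across cell types, and whether each library had its own animal.

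As background, a dividing cell first loads the MCM helicase onto replication origins, with the help of Cdc6 and Cdt1. Cyclin E with its kinase then starts the firing of these origins, and ribonucleotide reductase and thymidylate synthase supply the building blocks. Entry into mitosis needs cyclin B with Cdk1, the Polo and Aurora kinases build the spindle, and the spindle checkpoint holds back the anaphase-promoting complex until every chromosome is attached. S-phase genes are classically switched on by E2F factors. Mitotic genes are switched on later, through promoter elements named CHR (cell cycle genes homology region) and CCAAT boxes bound by the factor NF-Y. In adult bone most dividing cells are blood cell precursors of the marrow.

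No member of the list passed the threshold between knockout and wild-type bone. The mitotic genes had a median log2 change of 0.17 (range 0.00 to 0.44), and the S-phase genes one of 0.02 (range -0.26 to 0.13). Of all genes tested 5.16% passed, with 1.34% above and 3.82% below wild type, and the median log2 change was 0.06. The checkpoint kinase gene Bub1 was measured at 13.8, 11.4 and 16.7 FPKM in wild-type replicates 1 to 3 and at 18.3, 19 and 19.9 in knockout replicates 1 to 3. Every knockout library lay above every wild-type library. The group means were 13.9 ± 2.65 and 19.1 ± 0.833 (SD, n = 3; log2 change 0.44, SE 0.15, limma adjusted p = 0.151), the highest estimate on the list. Cyclin E1 (Ccne1) was measured at 30.9, 33.9 and 37.3 FPKM in wild type and at 30.7, 26.0 and 28.2 in knockout. Every knockout library lay below every wild-type library, though by little. The group means were 34 ± 3.23 and 28.3 ± 2.34 (SD, n = 3; log2 change -0.26, SE 0.13, limma adjusted p = 0.318). Besides these genes, the spindle motor gene Kif11 alone did not overlap between the groups. Such a lack of overlap was found in 14.7% of all genes tested in the higher and in 13.7% in the lower direction.

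The promoters were searched for motifs already known from genes of these 2 classes. Sequence did not enter the choice of genes, but the motifs were picked as known marks of such genes. A difference between the classes is therefore a description and no independent support for the grouping. RefSeq promoter windows (build GRCm38.p6, 250 bases before to 50 after the start) were found for 28 of the 34 genes, 12 of S phase and 16 of mitosis. Mcm4, Gins2, Ccne2, Ccna2, Aurkb and Tpx2 were not among the windows. Each window was searched on both strands for the CHR, as TTTGAA or TTCGAA, for CCAAT, and for E2F letters, as TTTCGCGC, TTTGGCGC, TTTCCCGC, TTTGCCGC or TTTCCCGG. A match is a description of the letters and not a site shown to be bound. The windows of Bub1 and Mcm5 are shown because each had the smallest p of its class among genes with a motif of that class. Bub1 lies on the minus strand, at chr2:127831810-127832109, and capitals mark its CHR and both CCAAT boxes. Mcm5 lies on the plus strand, at chr8:75109259-75109558, and capitals mark a pair of overlapping E2F matches on opposite strands.
Bub1: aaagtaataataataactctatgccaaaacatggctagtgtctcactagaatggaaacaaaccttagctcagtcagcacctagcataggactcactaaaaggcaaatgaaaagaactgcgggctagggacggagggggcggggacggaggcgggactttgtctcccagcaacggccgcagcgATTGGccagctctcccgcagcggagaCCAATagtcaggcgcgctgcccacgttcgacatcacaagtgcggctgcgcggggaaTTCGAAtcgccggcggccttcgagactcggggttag
Mcm5: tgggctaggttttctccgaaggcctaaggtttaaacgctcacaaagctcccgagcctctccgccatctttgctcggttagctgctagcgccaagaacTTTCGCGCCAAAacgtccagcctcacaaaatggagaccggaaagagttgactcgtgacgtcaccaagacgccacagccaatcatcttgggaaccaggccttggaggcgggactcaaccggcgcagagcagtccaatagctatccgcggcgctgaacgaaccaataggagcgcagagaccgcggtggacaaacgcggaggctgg

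The CHR was found in 12 of the 16 mitotic promoters (75%) and in 2 of the 12 S-phase promoters, those of Mcm2 and Mcm7. Among all 32851 windows, 19.2% held it, and of the 12217 windows of genes tested 14.4%. Position separated the classes further. A CHR within 50 bases of the start was found in 11 of 16 mitotic promoters (68.8%), in 0 of 12 S-phase promoters, and in 5.31% of all windows. The stretches around the mitotic match nearest to the start are shown because the letters after the motif recur, for example TTTGAAtcg in Cenpf, Mki67 and Ccnb2. The windows of 30 bases are written in the direction in which the motif reads, with the motif in capitals. Bub1b, whose match lies at the edge of its window, is left out.
Bub1: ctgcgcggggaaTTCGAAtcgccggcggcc
Cenpf: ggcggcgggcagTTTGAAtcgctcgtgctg
Mki67: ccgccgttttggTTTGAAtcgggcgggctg
Ccnb2: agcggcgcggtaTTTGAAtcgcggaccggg
Cdk1: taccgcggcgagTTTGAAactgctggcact
Plk1: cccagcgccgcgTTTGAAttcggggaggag
Aurka: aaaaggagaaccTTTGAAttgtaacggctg
Ube2c: ccgccgcccgcgTTTGAAttgcaaccctcc
Cdc20: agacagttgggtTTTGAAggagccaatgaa
Top2a: tccctagtttcaTTTGAAcctttatctagc
Kif11: ccgcgcctcaatTTTGAAaaatggagacga

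Letters of the E2F motifs ran the other way. They were found in 6 of 12 S-phase promoters (50%), those of Mcm3, Mcm5, Mcm6, Mcm7, Cdc6 and Cdt1, and in 2 of 16 mitotic promoters, those of Cdk1 and Birc5. Of all windows 3.48% held an E2F match, and of windows of genes tested 5.89%. CCAAT was frequent in both classes, in 14 of 16 mitotic and 8 of 12 S-phase promoters, against 37.4% of all windows. All 12 mitotic promoters with a CHR also held CCAAT, and so did the 2 S-phase promoters with a CHR. The combination was present in 7.52% of all windows. The mitotic genes without a CHR in the window were Ccnb1, Birc5, Nusap1 and Cenpe. The plot of motif positions shows these matches by distance from the start.

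**Figure D1:**
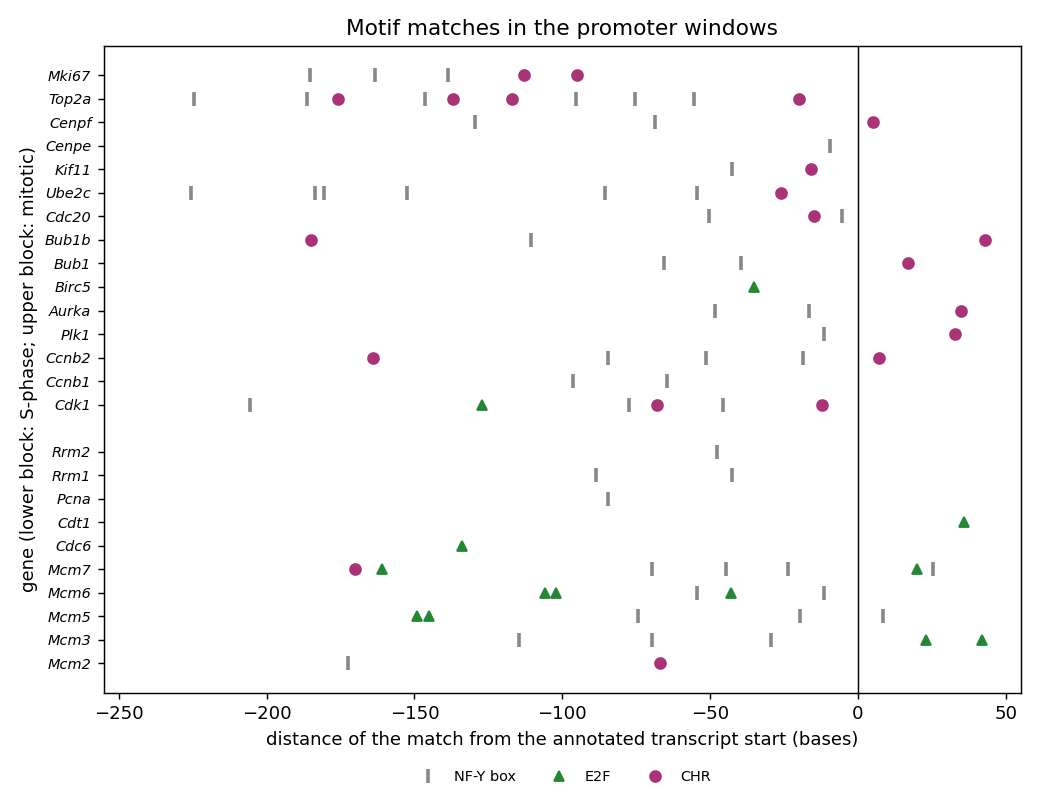
Each row is the promoter window of a gene with at least 1 match, and the horizontal axis gives the distance of a match from the annotated start in bases. Circles are CHR matches, triangles E2F matches and bars CCAAT (NF-Y) boxes; Nusap1, Ccne1 and Tyms had no match. CHR matches lie close to the start in 11 of 16 mitotic windows, and E2F matches lie in 6 of 12 S-phase windows.

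The deleted microRNAs share their seed (bases 2 to 8, in capitals) with miR-29a, which is made from another locus on chromosome 6 together with a second copy of miR-29b. The mature sequences from RefSeq are shown because the seed decides which transcripts can be bound.
mmu-miR-29b-3p: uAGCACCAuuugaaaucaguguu
mmu-miR-29c-3p: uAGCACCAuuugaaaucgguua
mmu-miR-29a-3p: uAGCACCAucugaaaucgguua
The complement of the seed, TGGTGCT, was searched in annotated 3′ UTRs. It occurred in 4 of the 34 genes (11.8%), all mitotic, against 16% of the 11721 tested genes with an annotated 3′ UTR. The 4 sites are shown with the match in capitals, and none was followed by an A.
Aurkb: ctagcactacaTGGTGCTcacgaccactg
Ccna2: ttggttaacatTGGTGCTgccaactgtca
Cenpf: tgctgtgtgtgTGGTGCTcaggtctccca
Tpx2: ttctttattgtTGGTGCTgacaatgggat
Log2 changes of these 4 genes were 0.30 for Aurkb, 0.07 for Ccna2, 0.01 for Cenpf and 0.20 for Tpx2, and none passed the threshold. The other 30 genes of the list had no such match.

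The deletion could not be checked from these files by loss of its product, since libraries of this kind do not capture mature microRNAs and the genes Mir29b-2 and Mir29c were listed at 0 in all 6 libraries. The host transcript A330023F24Rik rose in the knockout, from 0.136 to 0.197 FPKM in wild type to 2.51 to 4.08 (log2 change 1.87, limma adjusted p = 0.00676). Reads recovered from the FPKM values ranged from 16440930 to 19483097 per library. The libraries of wild-type replicate 2 and of knockout replicate 1 had FPKM totals of 489576 and 487102 against 355787 to 404994 for the other 4, and are called the libraries that stood apart. In both, genes with a long exon length were measured lower relative to genes with a short one.

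Most of the 34 genes were well expressed. The median rank of the 34 lay at the 90.6 percentile of the genes tested by mean FPKM, and the lowest at the 48.6 percentile. The sliding clamp gene Pcna was highest, with a mean of 212 FPKM over the 6 libraries, followed by the ribonucleotide reductase subunit Rrm2 (159.8), the proliferation antigen Mki67 (158) and the ubiquitin-conjugating enzyme Ube2c (132). The lowest means were those of the helicase subunit Gins2 (6.81) and the kinetochore protein Cenpf (11.3). For the 33 genes whose values gave whole reads, a gene had between 415 reads (Gins2) and 34014 reads (Mki67) in a library, and libraries of 1 group differed by far more than counting error (chi-square per degree of freedom over all genes of 16.8 to 94.6). In bulk bone, fewer cells of a type and less RNA per cell cannot be told apart.

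**Figure D2:**
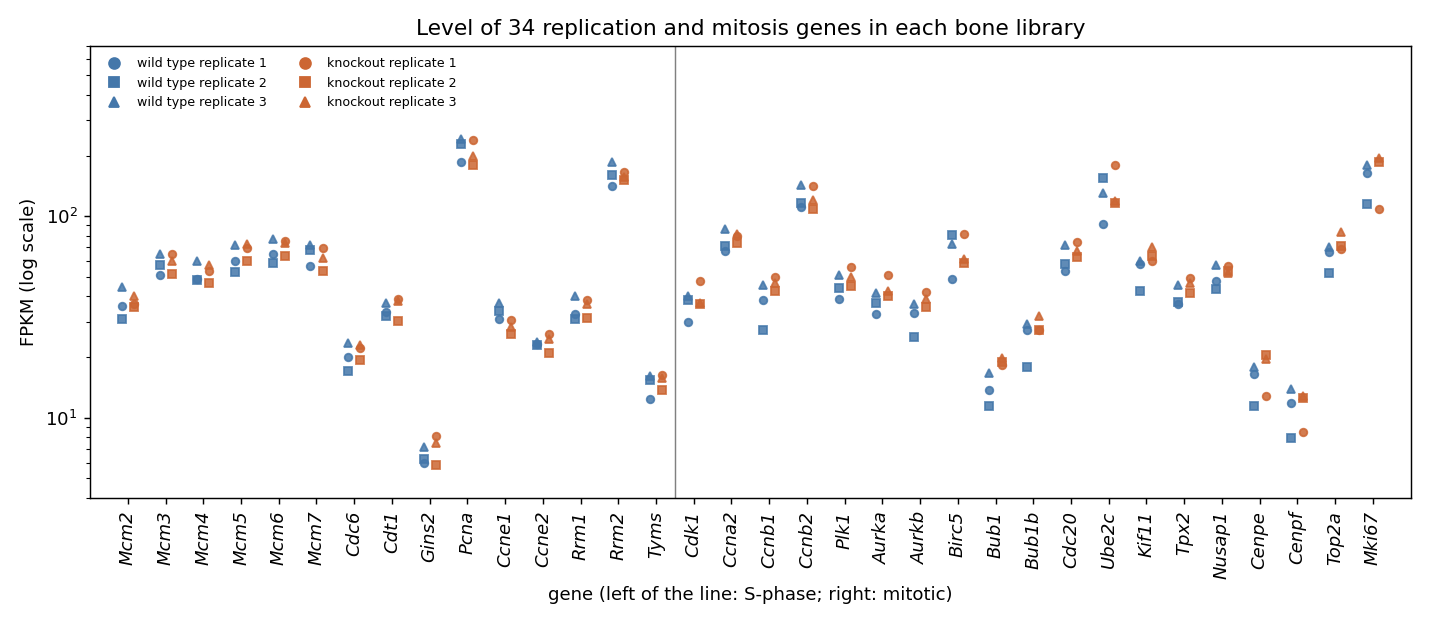
FPKM on a log scale is plotted for each of the 34 genes, with blue symbols for the 3 wild-type and orange symbols for the 3 knockout libraries, and symbol shape giving the replicate. The groups overlap for all but 3 genes: Bub1 and Kif11 lie higher and Ccne1 lower in every knockout library.

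The licensing genes differed little between the genotypes. Of the 8 genes, Mcm2 to Mcm7 encode the ring of the replicative helicase, and Cdc6 and Cdt1 encode the proteins that load it. Their log2 changes ran from -0.09 (Mcm7) to 0.13 (Mcm5), with a median of 0.04 and a smallest adjusted p of 0.709 in limma. Mcm5 was measured at 60.3, 52.7 and 72.1 FPKM in wild-type replicates 1 to 3, and at 69.7, 59.9 and 72.9 in knockout replicates 1 to 3. Mcm7 was measured at 56.8, 68.3 and 72.4 FPKM in wild type and at 69.4, 53.8 and 61.8 in knockout. The groups overlapped for both genes, and the same held for the other 6. Mcm2 had equal group means, 37.3 ± 6.98 and 37.3 ± 2.51 FPKM (SD, n = 3), with a 95% interval of the log2 change from -0.36 to 0.39. The log2 changes of the others were 0.02 for Mcm3, -0.00 for Mcm4, 0.09 for Mcm6, 0.10 for Cdc6 and 0.05 for Cdt1.

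Among the genes that fire origins, Ccne1 (ENSMUSG00000002068, chromosome 7, 38097984 to 38107534, minus strand, mm10) was the only S-phase gene whose groups did not overlap. The 95% interval of its log2 change, -0.56 to 0.04, included 0. Cyclin E2 (Ccne2), which activates the same kinase, stood at 23.2, 23.1 and 23.7 FPKM in wild type and at 26.0, 20.9 and 24.5 in knockout, with a log2 change of 0.02. The 3 wild-type libraries were close together for this gene and lay inside the range of the knockout. Pcna, the clamp that holds polymerases on DNA, was measured at 186, 229 and 242 FPKM in wild type and at 238, 180.2 and 198 in knockout (log2 change -0.09). Gins2, a subunit of the GINS complex that activates the helicase, was measured at 5.97, 6.27 and 7.17 FPKM in wild type and at 8.11, 5.82 and 7.53 in knockout (log2 change 0.12). Both overlapped between the groups.

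The genes of nucleotide supply had estimates near 0. Log2 changes were 0.04 for Rrm1, the large subunit of ribonucleotide reductase, -0.03 for Rrm2, its small subunit, and 0.06 for Tyms, thymidylate synthase. Rrm2 was measured at 141, 159.6 and 185 FPKM in wild type and at 165, 151 and 157 in knockout. Its knockout libraries lay inside the wild-type range. The widest 95% interval in this group was that of Rrm2, from -0.39 to 0.34, so a change of that size in either direction would not have been resolved.

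Among mitotic kinases and cyclins, 8 of 8 genes had a positive log2 change, with a median of 0.17, and 0 passed the threshold. Over all genes tested, 59.1% had a log2 change above 0 and the median was 0.06. Cyclin B1 (Ccnb1), which activates Cdk1 at the entry to mitosis, was measured at 38.5, 27.4 and 45.4 FPKM in wild type and at 50, 42.5 and 46.5 in knockout (log2 change 0.34, limma adjusted p = 0.396). Wild-type replicate 2 was far below the other wild-type libraries, and wild-type replicate 3 lay above the lowest knockout library. Cyclin B2 (Ccnb2) had the same mean of 124 FPKM in both groups, with a log2 change of 0.00 and a 95% interval from -0.40 to 0.40. The 2 B-type cyclins therefore had different estimates and overlapping intervals, and the difference between them was not tested.

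Aurora B (Aurkb), the kinase of the chromosomal passenger complex, was measured at 33.0, 25.3 and 36.9 FPKM in wild type and at 42.1, 35.4 and 39.0 in knockout (log2 change 0.30, limma adjusted p = 0.381). Aurora A (Aurka), the kinase of centrosomes and spindle poles, was measured at 32.6, 37.0 and 41.5 FPKM in wild type and at 51.0, 40.2 and 42.6 in knockout (log2 change 0.26, limma adjusted p = 0.391). In both genes 3 of 3 knockout libraries lay above the wild-type mean, and wild-type replicate 3 lay above the lowest knockout library. Birc5 (survivin), the partner of Aurora B in the same complex, was measured at 48.6, 80.5 and 73.2 FPKM in wild type and at 82.0, 58.7 and 61.7 in knockout. Its groups overlapped widely, with a log2 change of 0.02. Log2 changes of the remaining genes were 0.16 for Cdk1, the kinase that drives mitosis, 0.17 for the Polo kinase Plk1, and 0.07 for cyclin A2 (Ccna2).

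Bub1 (ENSMUSG00000027379, chromosome 2, 127801122 to 127831865, minus strand, mm10) encodes a kinase that recruits checkpoint proteins to unattached kinetochores. It was the only member with an unadjusted limma p under 0.05, a level that 20.6% of all genes tested reached. The 95% interval of its log2 change ran from 0.09 to 0.79. Over the alternative settings other than library weights, the smallest adjusted p of any member was 0.0947, that of Bub1 after removal of the trend with exon length. Its relative Bub1b (BubR1), a component of the checkpoint complex, was measured at 27.4, 17.8 and 29.2 FPKM in wild type and at 27.2, 27.2 and 32.1 in knockout (log2 change 0.24, limma adjusted p = 0.57). Only wild-type replicate 2 lay below all knockout libraries in that gene.

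The genes that end the checkpoint had smaller estimates than Bub1 and Bub1b. Cdc20, the activator of the anaphase-promoting complex, was measured at 53.3, 57.9 and 72.4 FPKM in wild type and at 74.9, 62.9 and 67.5 in knockout (log2 change 0.17). Ube2c, the ubiquitin-conjugating enzyme of the same complex, was measured at 91.3, 154 and 131 FPKM in wild type and at 180.3, 117 and 119 in knockout (log2 change 0.15, 95% interval -0.46 to 0.75). For Ube2c, wild-type replicate 2 and knockout replicate 1 were the highest libraries of their groups.

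Of the 7 genes of the spindle, kinetochore and chromosome structure, 7 had a positive log2 change, with a median of 0.19, and 0 passed the threshold. Kif11 (ENSMUSG00000012443, chromosome 19, 37376403 to 37421859, plus strand, mm10), the motor that pushes spindle poles apart, was measured at 58.0, 42.4 and 59.9 FPKM in wild type and at 60.2, 63.4 and 70.7 in knockout (log2 change 0.29, limma adjusted p = 0.405). Its groups did not overlap, by a margin of less than 1 FPKM between wild-type replicate 3 and knockout replicate 1. Top2a, the topoisomerase that untangles sister chromosomes, was measured at 66.7, 52.2 and 70.5 FPKM in wild type and at 69.1, 71.4 and 84.0 in knockout (log2 change 0.25, limma adjusted p = 0.459). Tpx2, which targets Aurora A to the spindle, and Nusap1, which bundles spindle microtubules, had log2 changes of 0.20 and 0.14.

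Mki67, Cenpe and Cenpf, all with a long exon length, showed a split within each genotype. Mki67, whose protein coats mitotic chromosomes, was measured at 164, 115 and 179.7 FPKM in wild type and at 109, 186 and 194 in knockout (log2 change 0.07, 95% interval -0.59 to 0.73). Cenpe, a kinetochore motor, was measured at 16.5, 11.4 and 17.9 FPKM in wild type and at 12.8, 20.6 and 19.6 in knockout (log2 change 0.19). Cenpf, a large kinetochore protein, was measured at 11.9, 7.92 and 13.9 FPKM in wild type and at 8.54, 12.5 and 12.8 in knockout (log2 change 0.01). In each of the 3 genes wild-type replicate 2 and knockout replicate 1 were the lowest libraries of their groups, the reverse of Ube2c.

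**Figure D3:**
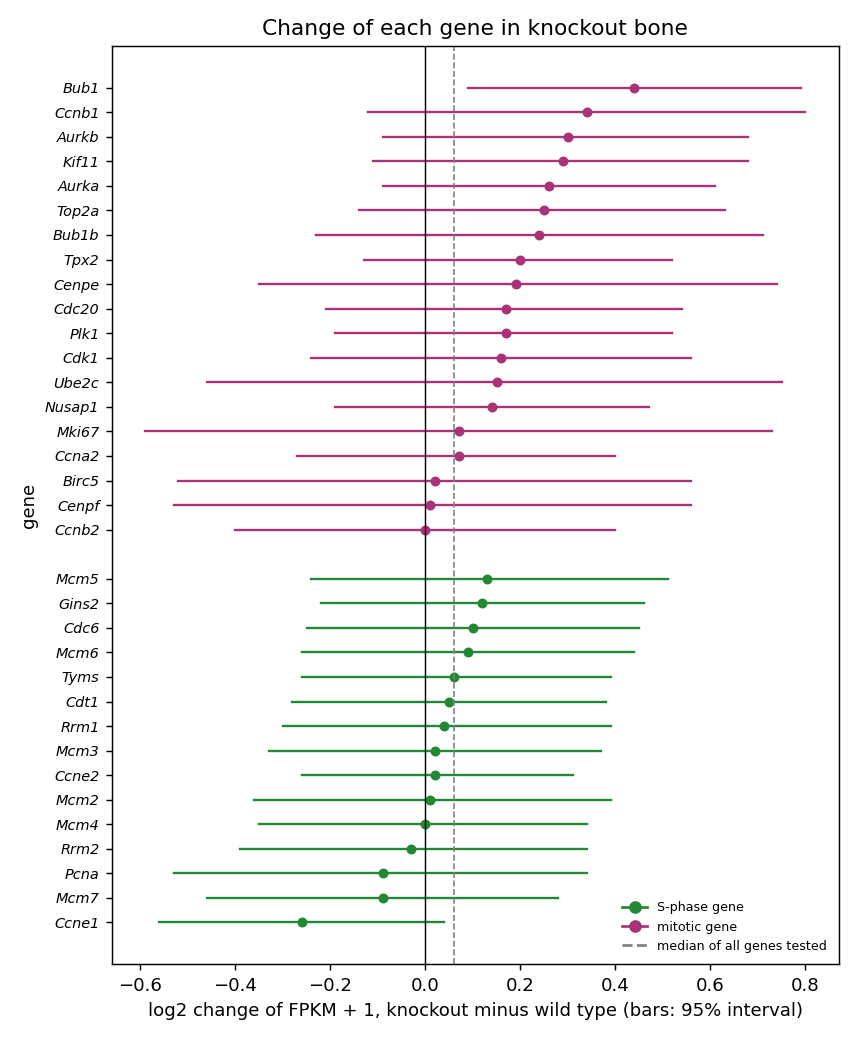
The log2 change of each gene (knockout minus wild type, on log2(FPKM + 1)) is drawn as a point with its 95% interval, S-phase genes in green and mitotic genes in purple. The dashed line marks the median of all genes tested, 0.06; 16 of 19 mitotic and 5 of 15 S-phase genes lie to its right, and only the interval of Bub1 leaves out 0.

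Between the classes, 19 of 19 mitotic and 10 of 15 S-phase genes had a log2 change above 0, against 59.1% of all genes tested. Above the median of all genes lay 16 mitotic and 5 S-phase genes. The difference between the class medians, S-phase minus mitotic, was -0.146. The mean log2(FPKM + 1) of the S-phase class was 5.32, 5.35 and 5.59 in wild-type replicates 1 to 3 and 5.54, 5.28 and 5.49 in the knockout libraries, which overlapped. The mean of the mitotic class was 5.43, 5.35 and 5.71 in wild type and 5.70, 5.62 and 5.72 in knockout. Wild-type replicate 3 lay within the knockout range and the other wild-type libraries lay below it.

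Taken within each library, which removes whatever both classes share there, the mitotic mean exceeded the S-phase mean by 0.11, -0.00 and 0.12 in wild type and by 0.16, 0.34 and 0.23 in knockout. These are 0.08 ± 0.07 and 0.25 ± 0.09 (SD, n = 3), a difference of 0.17 on the log2 scale, and every knockout library lay above every wild-type library. Because the genes were listed with earlier results known, this is given as a description with no test. With the trend of each library with exon length removed, the within-library differences were 0.11, 0.00 and 0.12 in wild type and 0.18, 0.34 and 0.22 in knockout. Over the alternative settings the difference of the class medians stayed between -0.181 and -0.133. Some settings could not move it, since they leave log2 changes unchanged or scale both classes nearly alike. With Mki67, Top2a, Ccna2 and Cdk1 left out of the mitotic class the difference was -0.171.

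**Figure D4:**
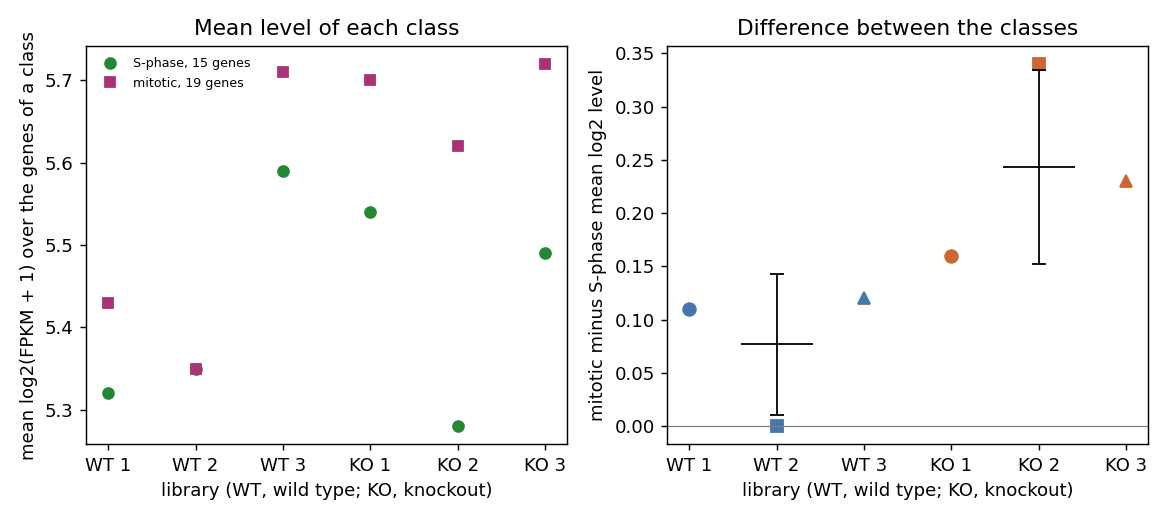
The left panel plots the mean log2(FPKM + 1) over the 15 S-phase genes (circles) and the 19 mitotic genes (squares) in each library. The right panel plots the mitotic minus the S-phase mean per library, with horizontal lines for the group mean and bars for 1 SD over 3 libraries; the knockout libraries lie at 0.16 to 0.34 and the wild-type libraries at -0.00 to 0.12.

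The level of each class depended on the libraries and their scaling. Wild-type replicate 3 held the highest wild-type value for 32 of the 34 genes, and knockout replicate 2 the lowest knockout value for 26. Without wild-type replicate 3 the median log2 change was 0.29 for the mitotic and 0.11 for the S-phase genes, and without knockout replicate 2 it was 0.24 and 0.11. Without both libraries that stood apart it was 0.09 and -0.06, with 17 of 19 mitotic and 3 of 15 S-phase genes above 0. Under quantile normalization 15 of 19 mitotic and 5 of 15 S-phase genes were above 0, and with totals equalized without the 100 most abundant genes these were 16 and 7. When limma weighted the libraries by their estimated precision, weights ran from 0.247 for wild-type replicate 2 to 5.33 for knockout replicate 2. Wild-type replicate 3 had a weight of 3.27 and no other library more than 1.07, so this fit leaned on that library and knockout replicate 2. The medians were then -0.03 for the mitotic and -0.20 for the S-phase genes, and 8 mitotic and 0 S-phase genes were above 0. Under those weights alone a member passed, Ccne1, with a log2 change of -0.42 and a limma adjusted p of 0.0133. Of the 19 mitotic genes, 7 kept their sign under every alternative setting run for them and 13 under all but the library weights; of the 15 S-phase genes, 3 and 5 did. There were 18 such settings, of which the one on recovered reads left out Kif11.

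Exon length, counted over all annotated exons of a gene, marked the libraries that stood apart. Across the 34 genes, which are not independent replicates and share a library and its scaling, the deviation of a library from its group mean had a Spearman's rho with exon length of -0.555 in wild-type replicate 2 and -0.642 in knockout replicate 1, and of 0.338 to 0.662 in the other 4 libraries. Across 13613 genes tested with a known exon length it was -0.421 and -0.445 in the same pair. Deviations of 1 gene add up to 0 within a group, so the 3 libraries of a group are not independent here. The 6 members with at least 7000 bases of exon (Cenpf, Rrm1, Mki67, Top2a, Cenpe and Kif11) had median deviations of -0.34 and -0.23 in these libraries on the log2 scale. Rrm1 alone of them lay above its group mean in knockout replicate 1, by 0.12. The 9 members with less than 3000 bases, among them Ccnb2, Ube2c and Cdc20, had median deviations of -0.01 and 0.15. Median exon length was 3993 bases in the S-phase and 4217 bases in the mitotic class. What made these libraries differ was not tested.

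**Figure D5:**
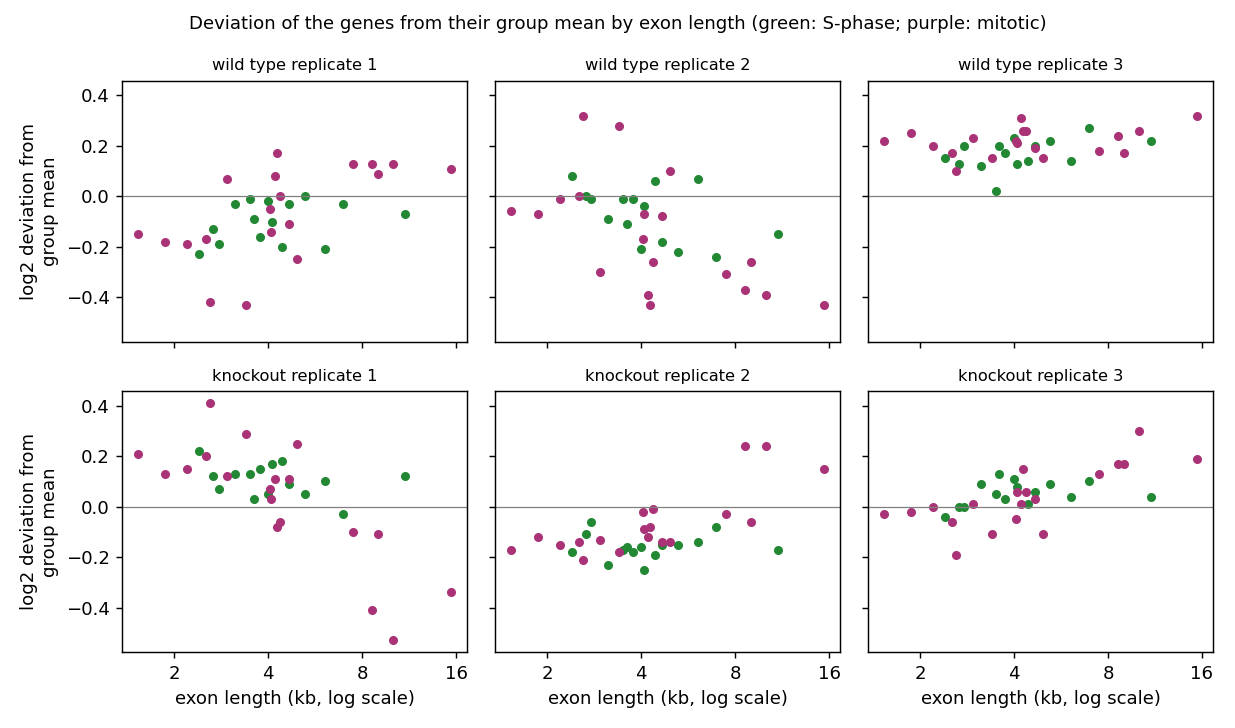
Each panel is a library, and each point a gene, with its exon length in kilobases (log scale) on the horizontal axis and its log2 deviation from the mean of its group on the vertical axis. Deviations fall with length in wild-type replicate 2 and knockout replicate 1 (rho -0.555 and -0.642), and wild-type replicate 3 lies above 0 for all genes shown.

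Other genes of the same processes were read from 10 lists with 219 genes, of which 217 were tested. In these lists 3 genes rose and 1 fell, together a smaller share than the 5.16% called over all genes tested. The share that rose was about that of all genes, 1.34%, and the share that fell was below their 3.82%. Cep55, which acts in the final separation of daughter cells, rose from 7.59, 5.64 and 6.46 FPKM in wild type to 11.3, 11.2 and 11.4 in knockout (log2 change 0.71, limma adjusted p = 0.0293). Cdc25a, the phosphatase that activates cyclin-dependent kinases at the start of S phase, rose from 8.07, 8.26 and 9.11 FPKM to 12.6, 12.3 and 13.8 (log2 change 0.55, limma adjusted p = 0.0359). Shmt1, which provides folate carbon units for thymidylate synthesis, rose from 3.61, 2.90 and 3.10 FPKM to 6.46, 5.09 and 5.79 (log2 change 0.69, limma adjusted p = 0.0337). Cyclin D1 (Ccnd1), which drives passage through G1, fell from 5.68, 4.51 and 5.85 FPKM to 2.34, 2.39 and 2.68 (log2 change -0.87, limma adjusted p = 0.0198). None of the 4 overlapped between the groups. Without each library in turn, Cep55, Cdc25a and Shmt1 missed the threshold in 6 of 6 fits (adjusted p from 0.0578 to 0.12, 0.0672 to 0.132 and 0.0728 to 0.092), and Ccnd1 missed it in 4 (0.0252 to 0.0891). Their log2 changes stayed within 0.51 to 0.80 and -0.96 to -0.81.

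Of the 217 genes 179 had a log2 change above 0 (82.5%), against 59.1% of all genes tested, and the median was 0.14. Not overlapping between the groups were 32 of the 217 genes higher in the knockout, about the same share as the 14.7% of all genes tested. Only 4 lay lower without overlap, a smaller share than the 13.7% of all genes. By process, 29 of 30 genes of spindle motors and cytokinesis were above 0 (median 0.20), 27 of 31 of the centromere and kinetochore (0.18), 19 of 21 of cohesin and condensin (0.14) and 17 of 21 of the spindle checkpoint and APC/C (0.11). On the replication side, 20 of 22 genes of origin recognition and helicase loading were above 0 (median 0.15), 17 of 18 of the replication checkpoint and fork repair (0.15), and 15 of 23 of DNA polymerases and fork proteins (0.05). Of the lists of nucleotide synthesis, CDK control, and E2F, RB and MYB-MuvB transcription, 6 of 10, 13 of 21 and 16 of 20 genes were above 0 (medians 0.26, 0.15 and 0.12). The polymerase list, which works at the same forks as the MCM ring, thus had a median close to that of all genes, 0.06. The origin list and the repair list had medians above it, within the 0.11 to 0.20 of the mitotic lists. The wider lists therefore did not all repeat the split between the S-phase and mitotic members.

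Genes with the smallest p in lists without a call are given as values. In origin recognition, Orc3, a subunit of the complex that marks origins, was measured at 8.33, 7.13 and 7.81 FPKM in wild type and 10.3, 10.9 and 10.6 in knockout (log2 change 0.41, limma adjusted p = 0.0729). The origin-firing kinase Cdc7 and its activator Dbf4 had log2 changes of 0.26 and 0.31. In the transcription list, Tfdp1, the DNA-binding partner of E2F factors, had a mean of 66.8 FPKM in wild type and 96.7 in knockout without overlap (log2 change 0.53, limma adjusted p = 0.0772). The repressor E2f6 and the MuvB subunit Lin9, which belongs to the complex that binds the CHR, had log2 changes of -0.25 and 0.20. Among kinetochore genes these were 0.38 for Spdl1, 0.44 for Cenpw and 0.25 for Nuf2, and among checkpoint genes 0.23 for Mad2l1, 0.28 for the kinase Ttk and 0.19 for the APC/C subunit Cdc23. The values were 0.30 for the polymerase subunit Pold2, 0.25 for Pole2 and 0.33 for the nuclease Dna2, and 0.30, 0.26 and 0.23 for the repair genes Rad54l, Xrcc2 and Rad51ap1. In cohesin and condensin they were 0.23 for the shugoshin Sgo2a, 0.26 for Pds5a and 0.29 for Smc1a.

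Markers of several cell types differed between the groups, and their part in the values of the division genes was not tested. Of 7 markers of neutrophil precursors, which divide in the marrow, 4 rose (Ctsg, Ms4a3, Mpo and Prtn3), and the summed level of all 7 was 1148 to 1601 FPKM in wild type and 2715 to 3995 in knockout. Ctsg, a protease of primary granules, was measured at 159, 177 and 178 FPKM in wild type and 637, 486 and 482 in knockout (log2 change 1.63, limma adjusted p = 0.0104). Elane, the most abundant marker in this list, was measured at 358, 515 and 474 FPKM in wild type and 1321, 784 and 978 in knockout (log2 change 1.18, limma adjusted p = 0.0553). Cebpe had a log2 change of 0.64 (limma adjusted p = 0.158). Fcnb did not share the rise: its groups overlapped, with a log2 change of 0.03 (limma adjusted p = 0.963). Without each library in turn, Mpo missed the threshold in 6 of 6 fits (adjusted p from 0.0614 to 0.101), Prtn3 in 5, Ms4a3 in 3, and Ctsg in that without wild-type replicate 1 (adjusted p = 0.0517). Of 8 markers listed for mature neutrophils, 0 passed. Their log2 changes ran from -0.26 for Mmp9 to 0.77 for S100a8, and 6 of 8 were above 0. In 4 of the 8 every knockout library lay above every wild-type library, and in 1, Mmp9, below. Over all genes tested these shares were 14.7% and 13.7%. Mmp8 and Cxcr2 had log2 changes of 0.60 and 0.40. The sum of this list was 18762 to 36380 FPKM in wild type and 33753 to 44352 in knockout, and its most abundant members were S100a9 (log2 change 0.52) and S100a8.

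Of 9 markers of B cell precursors 2 fell, the surrogate light chain genes Vpreb1 (log2 change -2.32, limma adjusted p = 0.022) and Igll1 (-2.06, limma adjusted p = 0.0254), calls lost in 3 and 4 of 6 fits without a library. All 9 had a log2 change below 0 (median -0.67). In 5 of the 9 every knockout library lay below every wild-type library, against 13.7% of all genes tested. The sum of that list was 287 to 373 FPKM in wild type and 179 to 354 in knockout, and its most abundant member was Cd79a, which mature B cells also express. Of 9 markers of red cell precursors, another dividing population, 0 passed, with a median log2 change of 0.06 and sums of 21921 to 47805 and 23692 to 40202 FPKM, led by the globin gene Hba-a1. In this list Tfrc, the transferrin receptor, had a log2 change of 0.11, Rhag one of 0.18 and Klf1 one of -0.07. Of 6 tested markers of stem and progenitor cells 0 passed (sums over all 8 listed, 28.5 to 36.9 and 30.6 to 33.7 FPKM), and of 6 megakaryocyte markers also 0 (814 to 1421 and 1330 to 1610 FPKM). All 6 megakaryocyte markers had a log2 change above 0 (median 0.41), against 59.1% of all genes tested, and each overlapped between the groups.

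Markers of bone, cartilage, fat and muscle were among the genes that fell. Of 7 osteoblast markers 3 fell (Alpl, Dmp1 and Sp7), with sums of 1106 to 1933 FPKM in wild type and 464 to 961 in knockout, and every library held them. Of 6 tested cartilage markers 5 fell (sums over all 7 listed, 223 to 319.5 and 7.16 to 38.5 FPKM), and Matn3 was listed at 0 in knockout replicate 3. Of 5 fat cell markers 5 fell (487 to 752 and 62.8 to 138 FPKM), and of 5 skeletal muscle markers 2 fell, Ckm and Mylpf (3345 to 5988 and 1710 to 2506 FPKM). Without each library in turn, Ckm, Mylpf and Dmp1 missed the threshold in 6 of 6 fits, and Alpl, Sp7 and the fat cell gene Fabp4 in 5. Col2a1, Comp, Matn3, Plin1 and Cfd missed it in 0, and Acan, Col9a1, Adipoq and Cidec in 1 or 2. FPKM values are relative to the rest of the library, and absolute amounts were not measured.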

How the data were processed

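RNA from bone was sequenced in 6 libraries, 3 per genotype, prepared from total RNA extracted with Trizol by an Illumina TruSeq kit, per the labels' protocols. The authors deposited FPKM values for 54532 genes. Bowtie 0.12.2 and the build mm10 are named, with no role, per the submitters' processing notes. The counting tool, annotation, strand setting and scaling were not given in the sources used here. Identifiers of 54495 genes matched GENCODE M21, which gave symbols, mm10 coordinates, exon lengths and 3′ UTRs.

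Groups and replicate numbers came from the sample titles. The deposited FPKM values were analysed as log2(FPKM + 1), a scale on which folds of low genes are understated, for genes with a mean of at least 1 FPKM. Groups were compared with limma 3.58.1 in R 4.3.3 (moderated variances with a trend, two-sided), with Benjamini-Hochberg adjustment over 13619 genes and a threshold of 0.05. Every adjusted p comes from limma. Those given for an alternative setting come from its own fit, adjusted over the genes tested there. The labels do not say that libraries came from separate animals, so a p-value reflects variation among these libraries alone, part of which may be technical. Multiplied by exon length, FPKM moved in steps that gave whole reads (within 0.01) for 96.9% of the 29615 genes above 0. Of the genes on chromosomes 18 and 19, 47.3% and 46.9% gave none, so recovered totals are incomplete and Kif11 has no read number. In a run of limma's voom on these reads, 819 genes and 0 members passed.

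The members, lists and tests were chosen with earlier results of these data known. Named are all members and, of each of 10 pathway and 10 cell type lists, the genes past the threshold or otherwise up to 3 with the smallest p, and the most abundant cell marker, with some left out for length. The stretches of 30 bases were chosen after the data were seen. Promoters and microRNAs are from RefSeq (GRCm38.p6). The fit was tested on simulated data. Figures were drawn with matplotlib 3.10.9. Alternatives covered the pseudocount, filter, scaling, variance model, library weights, replicate block, exon length and leaving out libraries.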

Additional observations from a re-analysis of the deposited data

How the results depend on the processing

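Of the division genes 0 passed under 17 of the 18 alternative settings, and 1, Ccne1, passed with library weights. All 34 were tested in each but the run on recovered reads, which left out Kif11. The mitotic class lay above the S-phase class under every setting, with a difference of medians (S-phase minus mitotic) of -0.181 to -0.133 on the log2 scale. Not every setting could move this difference. The filter, variance trend and replicate block leave the members' log2 changes as they are (-0.146 each). Scaling a whole library shifts both classes nearly alike. With library weights the class medians were -0.199 for S phase and -0.025 for mitosis, while 3354 genes, 20 of the pathway lists and 34 of the cell type lists passed, against 703, 4 and 21 in the reported fit. Without a filter on low values 143 genes, 0 pathway genes and 9 cell type markers passed. With totals equalized 1 pathway gene passed, Ccnd1. Without both libraries that stood apart 238 genes and 1 pathway gene passed. With the length trend removed 1119 genes and 9 pathway genes passed. Leaving out each library in turn gave 62 to 409 genes, 0 to 1 pathway genes and 5 to 16 cell type markers. The cause of these shifts was not tested, beyond fewer libraries in the last and more genes tested without a filter.

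With the replicate number as a block 127 genes, 0 pathway genes and 10 cell type markers passed, and 0 members. Deviations of same-numbered libraries correlated at -0.493, -0.27 and 0.158, and not every library correlated best with its own number. The numbers thus showed no pairing by correlation. These correlations cannot tell whether same-numbered libraries were handled together. Precision limits single genes: the 95% interval of a member's log2 change had a median width of 0.74 (0.57 to 1.32), which limits the change of a single gene that could be resolved.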
